A study of Homo sapiens with 21 samples.

Results

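The 10 genes described here, NR0B1, NKX2-2, BCL11B, FEZF1, EGR2, PRKCB, PPP1R1A, GSTM4, FCGRT and LOXHD1, were listed by symbol as targets that EWS/FLI is known to activate. They are 10 of the 57820 genes in the deposited table, and 10 of 10 passed the filter on low values that left 18040 genes for testing. The study measured RNA by sequencing in A673, an established Ewing sarcoma cell line that carries the EWS/FLI fusion gene, and concerned what the EWS part of the protein adds at GGAA repeats. All 21 libraries came from A673 cells that stably expressed an RNAi construct, were selected for 4 days and then received a retroviral pMSCV-hygro vector. Control libraries had RNAi against luciferase and an empty vector (n = 4, batches 1, 2, 3 and 5). Knockdown libraries had RNAi against EWS/FLI and an empty vector (n = 5, batches 1 to 5). The rescue libraries had the same EWS/FLI RNAi with a vector for full-length type IV EWS/FLI, called wild type (n = 5, batches 1 to 5), for the delta 22 mutant (n = 4, batches 1 to 4) or for the mut9 mutant (n = 3, batches 3 to 5). The labels do not say what either mutant changes in the protein, whether cells were grown as pools or clones, or when RNA was taken after the rescue infection. They also do not say that libraries of a group came from separate cultures, so the p-values speak only to how far these samples vary, and that variation may be technical.

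EWS/FLI joins the amino-terminal part of EWSR1, an RNA-binding protein with a disordered, low-complexity region, to the DNA-binding ETS domain of FLI1. ETS proteins recognise a GGAA core, and EWS/FLI also binds tandem GGAA repeats (microsatellites), where it recruits chromatin-opening and transcription machinery and activates nearby genes. In Ewing sarcoma NR0B1 and GSTM4 are standard examples of such repeat-driven targets, and NKX2-2 is used as a diagnostic marker.

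Promoter windows from RefSeq (build GRCh38.p14), each running from 250 bases before to 50 after an annotated start, matched 9 of the 10 genes and gave 16 windows. PPP1R1A was not matched. The 4 windows shown were chosen because they hold the distinct forms found: scattered GGAA cores (NR0B1), the extended ETS core CCGGAA (GSTM4), 2 adjacent GGAA units (LOXHD1) and no GGAA (BCL11B). They are written 5′ to 3′ on the strand of the gene, with GGAA and its reverse complement TTCC in capitals.
NR0B1, chrX:30309341-30309640, minus strand: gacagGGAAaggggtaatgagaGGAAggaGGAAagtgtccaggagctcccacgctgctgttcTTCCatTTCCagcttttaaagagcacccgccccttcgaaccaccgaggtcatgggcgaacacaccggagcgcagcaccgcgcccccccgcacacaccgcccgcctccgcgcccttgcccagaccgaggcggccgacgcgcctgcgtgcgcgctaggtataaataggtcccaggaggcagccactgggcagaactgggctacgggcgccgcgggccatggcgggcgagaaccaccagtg
GSTM4, chr1:109655849-109656148, plus strand: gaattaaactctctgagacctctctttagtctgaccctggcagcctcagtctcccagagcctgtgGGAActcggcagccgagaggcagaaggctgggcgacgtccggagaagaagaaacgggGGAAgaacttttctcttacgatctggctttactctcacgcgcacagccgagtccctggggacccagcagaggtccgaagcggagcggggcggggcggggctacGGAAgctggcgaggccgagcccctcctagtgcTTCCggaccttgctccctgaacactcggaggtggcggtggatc
LOXHD1, chr18:46657171-46657470, minus strand: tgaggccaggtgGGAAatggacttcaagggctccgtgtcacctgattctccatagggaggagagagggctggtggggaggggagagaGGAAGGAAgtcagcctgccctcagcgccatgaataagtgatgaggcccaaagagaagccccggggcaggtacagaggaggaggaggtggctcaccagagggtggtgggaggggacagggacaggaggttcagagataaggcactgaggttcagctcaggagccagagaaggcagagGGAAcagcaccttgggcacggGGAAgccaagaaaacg
BCL11B, chr14:99272148-99272447, minus strand: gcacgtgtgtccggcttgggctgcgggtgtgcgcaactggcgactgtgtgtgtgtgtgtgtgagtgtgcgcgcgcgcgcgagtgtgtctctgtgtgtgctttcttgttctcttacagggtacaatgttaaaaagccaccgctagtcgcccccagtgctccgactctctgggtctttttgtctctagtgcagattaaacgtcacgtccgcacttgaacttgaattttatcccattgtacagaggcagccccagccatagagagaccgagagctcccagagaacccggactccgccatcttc
Counting both strands, GGAA occurred 5 times in the NR0B1 window, 4 times in that of GSTM4, 5 times in that of LOXHD1 and 0 times in that of BCL11B. It was found in 13 of the 16 windows, from 7 of the 9 genes, against 95.5% of all 35116 windows of the same length. The windows of BCL11B and PRKCB and the second of the 2 NKX2-2 windows were without it. CCGGAA, which contains GGAA, occurred in the GSTM4 window, on the strand opposite to the gene, and in 17.2% of all windows. GGAAGGAA, a run of 2 units, occurred in the LOXHD1 window shown, 1 of 4 alternative starts of that gene, and in 3.67% of all windows. A run of 3 such units was in 0 of the 16 windows and in 0.0854% of all. The windows end within 250 bases of the start, so the distal repeats described for NR0B1 and other targets lie outside them. A match is a description of the letters and not evidence of a bound site.

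Values are the authors' normalized log2 values, on which a difference of 1 is a doubling of the normalized value. Their transform is not stated, but they have the form of regularized logarithms, which draw low genes together. Folds given for genes with low values in a group may therefore be smaller than those of the read counts. The values can also be negative. They are not divided by gene length, so levels are compared between groups and not between genes. The table keeps no read totals, so the depth of a library is unknown. Each difference is between group means with its standard error, and adjusted p is the 2-sided limma value after Benjamini-Hochberg adjustment over all genes tested, called below 0.05. FLI1, the gene that supplies the 3′ end of the fusion, was 11.56 to 11.69 in control, 9.59 to 9.99 in knockdown, 10.35 to 10.69 in wild-type, 10.99 to 11.51 in delta 22 and 10.10 to 10.39 in mut9 libraries, and knockdown minus control was -1.87 ± 0.10. Every knockdown library was below every control library, but these values do not separate the native fusion from the rescue transcript. Of 5 Ewing sarcoma markers, 4 passed the filter and CD99 was listed at 0 in every library. Such a 0 does not tell whether the RNA was absent or its reads were not counted, so the level of CD99 is unknown. Epithelial markers passed in 0 of 3 cases, leukocyte markers in 2 of 5 (PTPRC, CD68), endothelial markers in 2 of 3 (VWF, CDH5) and skeletal muscle markers in 1 of 3 (DES). The other endothelial marker, PECAM1, was not matched to a gene of the deposited table, so its level is unknown. The summed log2 level of the muscle list was 2.69 to 3.21 in control and 4.34 to 5.25 in knockdown libraries, with MYOD1 and MYOG below the filter. In wild-type, delta 22 and mut9 libraries the level of this list was 2.96 to 4.59, 4.81 to 5.79 and 3.05 to 3.41. That of the leukocyte list was 5.04 to 5.34 in control and 5.78 to 6.65 in knockdown libraries, and 4.902 to 5.54, 5.68 to 6.34 and 5.61 to 5.71 in the rescue groups in the same order. The endothelial list stood at 3.75 to 4.28 in control, 4.28 to 4.898 in knockdown, 4.12 to 4.903 in wild-type, 4.87 to 5.55 in delta 22 and 4.04 to 4.59 in mut9 libraries. The 3 lists were thus higher in knockdown and delta 22 than in control libraries. For the endothelial list the knockdown and control ranges nearly touched (lowest knockdown 4.283, highest control 4.282). In knockdown against control, VWF (3.36 to 4.23 against 2.10 to 2.65) and CD68 (5.30 to 6.31 against 4.31 to 4.66) rose without overlap. In this comparison 59.4% of all genes had no overlap, in either direction. CDH5 (2.95 to 4.29 against 3.13 to 3.72) and PTPRC (3.67 to 4.30 against 3.56 to 3.89) overlapped. The epithelial list was 2.09 to 2.45 in knockdown and 2.47 to 3.30 in control libraries. The part of these lists in the results below was not tested. In bulk RNA, fewer expressing cells and less RNA per cell cannot be told apart.

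**Figure D1:**
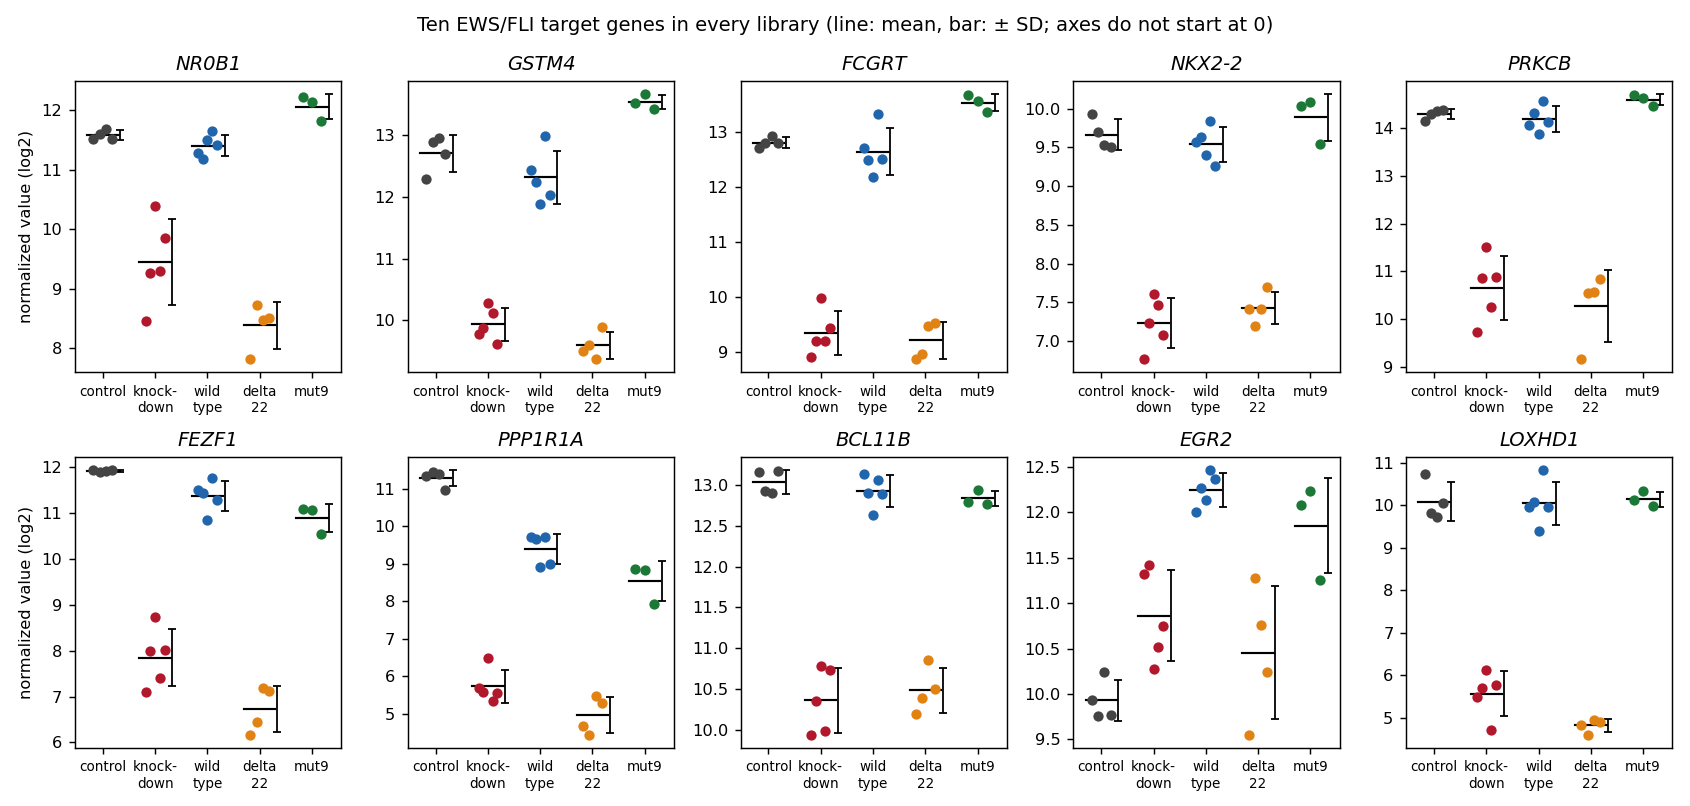
Normalized log2 value of each of the 10 genes (vertical axes, which do not start at 0) in each of the 21 libraries, by group; points are libraries ordered by batch, lines are means and bars are ± SD. NR0B1 runs from 7.82 in a delta 22 library to 12.22 in a mut9 library, and EGR2 is the gene whose control mean is the lowest of its 5 group means, although 1 delta 22 library (9.55) lies below every control library (9.76 to 10.25).

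After EWS/FLI knockdown, 9 of the 10 genes fell and EGR2 rose. Of all genes tested, 34% were called lower and 35.5% higher, so a call in this comparison was common, whereas a called fall of at least log2 1, which these 9 genes had, was seen in 8.53% of genes. With quantile scaling 38% of all calls were higher, in place of 51.1%. The falls ranged from 4.39-fold for NR0B1 to 47.2-fold for PPP1R1A. The members' median difference was -3.11, against -0.01 for all genes. The control and knockdown libraries did not overlap for any of the 10, as for 59.4% of all genes. Within each of the 4 batches that hold both groups, the 9 genes were lower in the knockdown library. Values within a group are listed below in batch order.

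Among the transcription factors, NR0B1 (X chromosome), an orphan nuclear receptor that acts as a corepressor, was 11.51, 11.60, 11.69 and 11.52 in control libraries. In knockdown libraries it was 8.45, 9.27, 10.39, 9.29 and 9.84, a difference of -2.13 ± 0.26 (adjusted p = 3.92e-07). The knockdown libraries were all below the controls but spread widely, with batch 3 the highest and batch 1 the lowest. NKX2-2 (chromosome 20), a homeodomain factor of neural and pancreatic development, was 9.505 to 9.93 in control and 6.77 to 7.60 in knockdown libraries, 5.40-fold lower (-2.43 ± 0.16). BCL11B (chromosome 14), a zinc finger factor of T cell commitment, was 12.90 to 13.17 and 9.94 to 10.78, 6.41-fold lower (-2.68 ± 0.16). Both had groups that lay well apart. FEZF1 (chromosome 7), a zinc finger repressor of forebrain and olfactory development, was 11.93, 11.88, 11.91 and 11.93 in control libraries, the smallest spread of the 10 genes there. It was 7.10, 7.99, 8.72, 7.41 and 8.01 in knockdown libraries, 16.8-fold lower (-4.07 ± 0.26, adjusted p = 7.15e-11).

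EGR2 (chromosome 10), a zinc finger factor induced early by growth signals and needed for myelination, went the other way. It was 9.93, 9.76, 10.25 and 9.77 in control and 11.32, 11.42, 10.27, 10.52 and 10.75 in knockdown libraries, 1.90-fold higher (0.93 ± 0.28, adjusted p = 0.00681). The lowest knockdown library, batch 3, was just above the highest control library, also batch 3. Within batches the rise ranged from 0.03 to 1.66 and was positive in 4 of 4. In a fit of batches 3 to 5 only it was 0.51 (adjusted p = 0.134) and did not pass.

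Both genes of intracellular signalling fell. PRKCB (chromosome 16), the beta form of the calcium- and diacylglycerol-dependent protein kinases C, was 14.13 to 14.38 in control and 9.73 to 11.50 in knockdown libraries, 12.5-fold lower (-3.64 ± 0.30). PPP1R1A (chromosome 12), an inhibitor of protein phosphatase 1 that acts when phosphorylated by protein kinase A, was 11.35, 11.44, 11.40 and 10.97 in control libraries. It was 5.69, 5.58, 6.49, 5.33 and 5.55 in knockdown libraries, 47.2-fold lower (-5.56 ± 0.27, adjusted p = 1.2e-12). No other member fell as far, and every knockdown library was more than log2 4 below every control library.

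Of the genes for metabolism and transport, GSTM4 (chromosome 1), a mu-class glutathione S-transferase that conjugates glutathione to reactive compounds, was 12.29, 12.89, 12.95 and 12.69 in control libraries. It was 9.78, 9.87, 10.28, 10.12 and 9.61 in knockdown libraries, 6.83-fold lower (-2.77 ± 0.19, adjusted p = 1.15e-10). FCGRT (chromosome 19), the heavy chain of the neonatal Fc receptor that recycles IgG and albumin, was 12.69, 12.79, 12.92 and 12.80 in control libraries. In knockdown libraries FCGRT was 8.92, 9.20, 9.99, 9.20 and 9.45, 10.9-fold lower (-3.45 ± 0.20, adjusted p = 2.11e-11). For both genes the lowest control library was at least log2 2 above the highest knockdown library. LOXHD1 (chromosome 18), a protein of inner ear hair cells made of repeated lipid-binding-type domains, was 9.71 to 10.74 and 4.71 to 6.14, 22.9-fold lower (-4.51 ± 0.27). Its control spread was the widest of the 10, through the batch 1 library.

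**Figure D2:**
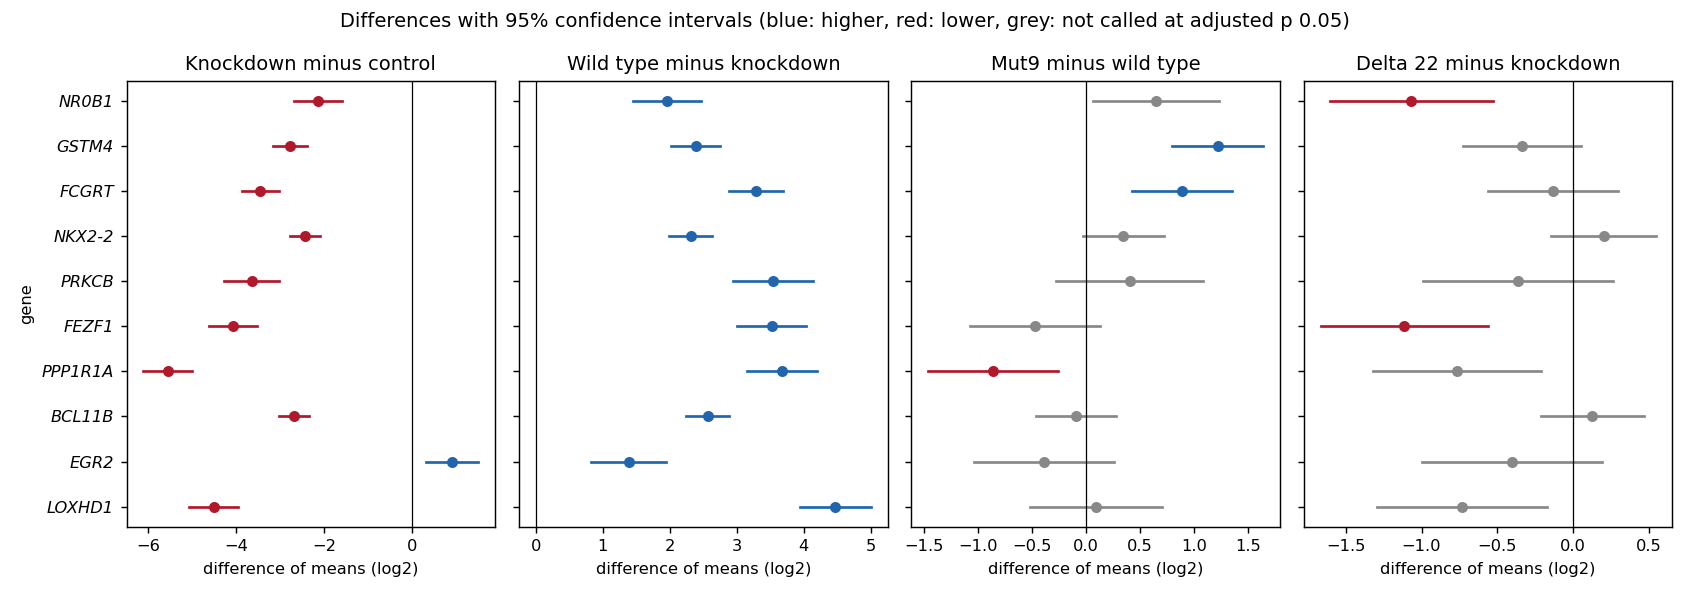
Difference of group means for each gene (horizontal axes, log2, with their own ranges) with unadjusted 95% confidence intervals in 4 comparisons; blue genes are called higher, red lower and grey not called at adjusted p 0.05. The 9 falls after knockdown (against control) lie between -2.13 and -5.56, and all 10 genes are higher with wild type than in the knockdown. Mut9, here set against wild type, has 2 members higher and 1 lower. Delta 22, here set against the knockdown, has 0 higher and 2 lower.

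Wild-type EWS/FLI raised 10 of the 10 genes above the knockdown, where 29.6% of all genes were called higher, and the rise was positive in 5 of 5 batches for each gene. The groups overlapped for 0 of the 10, against 42.5% of all genes without overlap. The rises ran from 2.61-fold for EGR2 to 22.21-fold for LOXHD1, with a median of 2.93 against 0.01 for all genes. Quantile scaling moved the share of all calls that were higher from 47.8% to 59.5%. NR0B1 was 11.29, 11.19, 11.50, 11.65 and 11.41 in wild-type libraries (1.96 ± 0.24 over knockdown). FEZF1 was 11.49, 11.43, 10.85, 11.76 and 11.29 (3.52 ± 0.25). Both were above all knockdown libraries. GSTM4 was 12.44, 12.24, 11.89, 12.98 and 12.03 (2.38 ± 0.18). FCGRT was 12.70, 12.48, 12.18, 13.31 and 12.50 (3.28 ± 0.19). In both of these genes batch 4 was the highest library and batch 3 the lowest. The rise was 2.31 ± 0.16 for NKX2-2, 2.57 ± 0.15 for BCL11B, 3.54 ± 0.28 for PRKCB and 4.47 ± 0.25 for LOXHD1. In each of these comparisons with knockdown the same 5 knockdown libraries were used.

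Against control libraries, 8 of the 10 genes did not pass the test in wild-type libraries, 1 was lower and 1 was higher, where 18.3% of all genes were called lower and 21.3% higher (higher in 53.7% of calls, and in 42.7% with quantile scaling). PPP1R1A was 9.71, 9.65, 8.92, 9.72 and 8.996 in wild-type libraries, 12.7-fold above knockdown (3.67 ± 0.25) and 3.70-fold below control (-1.89 ± 0.27, adjusted p = 1.92e-05). Its wild-type libraries lay between the knockdown and control libraries without overlap with either. Wild-type and control libraries did not overlap for 31.2% of all genes. EGR2 was 12.001, 12.26, 12.13, 12.46 and 12.37, 4.98-fold above control (2.32 ± 0.28, adjusted p = 4.56e-06). Wild type was thus above the knockdown for EGR2 while the knockdown was itself above control. For the 8 others the differences from control lay between -0.55 for FEZF1, whose wild-type libraries were all below its control libraries, and -0.04 for LOXHD1, with 95% intervals of -1.10 to 0.003 and -0.60 to 0.52. GSTM4 was -0.39 ± 0.19 (adjusted p = 0.106). With a replicate block, which compares libraries within a batch, it was -0.47 (adjusted p = 0.0223) and passed, as it did without control replicate 1 (-0.53, adjusted p = 0.0397) or without wild-type replicate 4 (-0.55, adjusted p = 0.0111). FEZF1 passed in a fit of these groups only (adjusted p = 0.0139).

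Placed on the line from the knockdown mean (0%) to the control mean (100%) of each gene, the wild-type mean was 66.0% for PPP1R1A and 86.0% to 99.1% for the 8 other genes that had fallen. On this scale mut9 stood at 50.6% for PPP1R1A, 74.9% for FEZF1 and 92.5% for BCL11B, and at 101% to 130% for the others, with GSTM4 the highest. Delta 22 stood at -50.0% for NR0B1 and -27.4% for FEZF1, and between -16.3% (LOXHD1) and 8.18% (NKX2-2) for the rest. Single knockdown libraries themselves ran from -46.9% to 44.0% for NR0B1 and from -18.3% to 21.5% for FEZF1. EGR2 was left out because its control mean is below its knockdown mean.

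**Figure D3:**
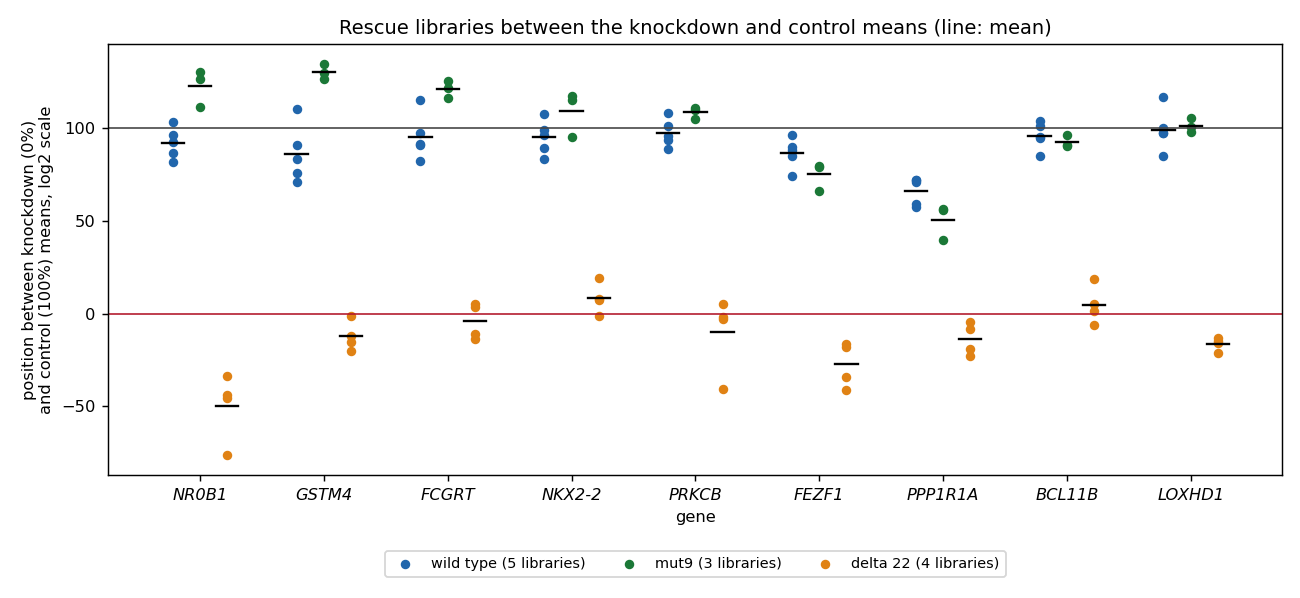
Position of each rescue library (points) and of the group means (lines) between the knockdown mean (0%) and the control mean (100%) of each gene on the log2 scale; EGR2 is left out. Wild-type means lie between 66.0% (PPP1R1A) and 99.1% (LOXHD1), mut9 means between 50.6% (PPP1R1A) and 130.1% (GSTM4), and delta 22 means lie between -50.0% and 8.18%.

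The mut9 mutant also raised 10 of the 10 genes above the knockdown, where 23% of all genes were called higher. LOXHD1 was 23.7-fold higher (4.57 ± 0.29), FCGRT 18-fold (4.17 ± 0.22) and GSTM4 12.2-fold (3.61 ± 0.20). EGR2 was 12.08, 12.23 and 11.25 in mut9 libraries, 0.99 ± 0.31 over knockdown (adjusted p = 0.012). Its batch 5 library was within the knockdown range, and the call was lost without mut9 replicate 3 (0.88, adjusted p = 0.0575) or 4 (0.81, adjusted p = 0.0762). The other 9 genes had no overlap with the knockdown, against 46.9% of all genes.

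Set directly against wild type, mut9 had 2 members higher and 1 lower, where 11.2% of all genes were called higher and 7.61% lower (higher in 59.5% of calls, and in 43.9% with quantile scaling). GSTM4 was 13.53, 13.66 and 13.43 in mut9 libraries, 2.33-fold above wild type (1.22 ± 0.20, adjusted p = 0.000512). FCGRT was 13.66, 13.55 and 13.36, 1.85-fold above wild type (0.89 ± 0.22, adjusted p = 0.00915). The mut9 libraries were above all wild-type libraries for both genes. PPP1R1A was 8.87, 8.84 and 7.92, 1.81-fold below wild type (-0.86 ± 0.29, adjusted p = 0.0434), again without overlap. Groups without overlap were found for 23.8% of all genes. NR0B1 was 12.22, 12.14 and 11.82, also above all wild-type libraries, but its difference of 0.65 ± 0.28 did not pass (adjusted p = 0.111, 95% interval 0.07 to 1.24). For the 6 other genes the differences ran from -0.47 for FEZF1 (95% interval -1.07 to 0.13) to 0.40 for PRKCB (-0.28 to 1.09) and did not pass. The smallest were -0.09 for BCL11B (-0.46 to 0.28) and 0.09 for LOXHD1 (-0.52 to 0.70).

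These calls were not equally firm. GSTM4 kept its call in 29 of 29 alternatives, with adjusted p up to 0.0174. FCGRT lost it without mut9 replicate 3 (0.82, adjusted p = 0.0531) and in batches 3 to 5 only (0.86, adjusted p = 0.0538). PPP1R1A kept it in 18 of 29, with differences from -1.02 to -0.55, the latter without mut9 replicate 5 (adjusted p = 0.245). It was also lost without control replicate 2 or 3, mut9 replicate 3 or 4, or wild-type replicate 1, 2 or 4, in batches 3 to 5 only (-0.67, adjusted p = 0.236), without the filter (adjusted p = 0.0743) and in a fit of the compared groups only (adjusted p = 0.0671). NR0B1 gained a call without knockdown replicate 1 (adjusted p = 0.0402), with array weights (adjusted p = 0.0336) and in a fit of the mut9 and wild-type libraries only (adjusted p = 0.0112). FLI1 was -0.24 ± 0.11 in mut9 against wild type (adjusted p = 0.124), and it passed with quantile scaling (-0.33, adjusted p = 0.0379).

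Against control, a comparison added after the values were seen, mut9 libraries were higher for 3 members and lower for 2, where 23.5% of all genes were called higher and 18.9% lower (higher in 55.4% of calls, and in 38.4% with quantile scaling). GSTM4 was 0.83 ± 0.21 (adjusted p = 0.00356), FCGRT 0.72 ± 0.23 (adjusted p = 0.0169) and EGR2 1.92 ± 0.32 (adjusted p = 0.000102) above control. FEZF1 was 11.08, 11.06 and 10.54 in mut9 libraries, 2.03-fold below control (-1.02 ± 0.30, adjusted p = 0.00997), and PPP1R1A was 6.72-fold below (-2.75 ± 0.30, adjusted p = 9.28e-07). FCGRT did not pass with a replicate block (0.54, adjusted p = 0.0619) or without mut9 replicate 3 (0.65, adjusted p = 0.0676), and FEZF1 did not without mut9 replicate 5 (-0.84, adjusted p = 0.0575). In batches 3 to 5 only, GSTM4 (0.72, adjusted p = 0.0844) and FCGRT (0.67, adjusted p = 0.0949) did not pass.

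The delta 22 mutant raised 0 of the 10 genes above the knockdown, and 2 were lower, where 2.24% of all genes were called higher and 2.26% lower (3.55% and 3.61% with a replicate block). FLI1 was 1.505 ± 0.10 higher in these libraries than in the knockdown. NR0B1 was 7.82, 8.73, 8.48 and 8.51 in delta 22 libraries, 2.09-fold below knockdown (-1.07 ± 0.26, adjusted p = 0.0218). FEZF1 was 6.17, 6.45, 7.18 and 7.12, 2.16-fold below knockdown (-1.11 ± 0.26, adjusted p = 0.0201). For both genes the groups overlapped, through the low batch 1 knockdown library, while within batches delta 22 was the lower in 4 of 4. PPP1R1A was 4.66, 4.45, 5.47 and 5.28 (-0.77 ± 0.27, adjusted p = 0.105) and passed with a replicate block (-0.86, adjusted p = 0.0431). LOXHD1 was 4.85, 4.61, 4.96 and 4.90 (-0.74 ± 0.27, adjusted p = 0.125) and passed without knockdown replicate 4 (-0.95, adjusted p = 0.0354). The 6 other genes differed from the knockdown by -0.40 (EGR2, 95% interval -0.998 to 0.19) to 0.20 (NKX2-2, -0.14 to 0.54) and did not pass.

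Both delta 22 calls could be lost by leaving out a library. Without delta 22 replicate 1, NR0B1 was -0.88 (adjusted p = 0.0942) and FEZF1 -0.93 (adjusted p = 0.0883). FEZF1 was also lost without delta 22 replicate 2 (-1.02, adjusted p = 0.062) and NR0B1 without knockdown replicate 5 (-0.97, adjusted p = 0.0598). With the spread taken from the delta 22 and knockdown libraries only, the adjusted p was 0.145 for NR0B1 and 0.123 for FEZF1, and in batches 3 to 5 only it was 0.0625 and 0.264.

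Set against wild type, delta 22 was lower for 10 of 10 genes, where 29.5% of all genes were called lower, from -1.79 ± 0.28 for EGR2 to -5.21 ± 0.27 for LOXHD1. Mut9 was higher than delta 22 for 10 of 10, where 23.4% of all genes were called higher, from 1.40 ± 0.32 for EGR2, with overlap, to 5.30 ± 0.31 for LOXHD1. Against control, added after the values were seen, delta 22 was lower for 9 of the 10, where 33.7% of all genes were called lower (higher in 51% of calls, and in 39.3% with quantile scaling). EGR2 was 9.55, 11.27, 10.76 and 10.24 in delta 22 libraries, lowest in batch 1 and highest in batch 2, and its 0.53 ± 0.30 over control did not pass (adjusted p = 0.126), though it did without delta 22 replicate 1 (0.83, adjusted p = 0.013).

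Many neighbouring steps in the order of the group means did not pass the test. For NR0B1, GSTM4, FCGRT, PRKCB and LOXHD1 the means ran from mut9 through control, wild type and knockdown down to delta 22. Of these steps wild type over knockdown passed for 5 of 5 genes, mut9 over control for GSTM4 and FCGRT, knockdown over delta 22 for NR0B1, and control over wild type for 0 of 5. For NKX2-2 the means ran from mut9 through control, wild type and delta 22 to knockdown, and only the step from wild type to delta 22 passed. For BCL11B the order was control, wild type, mut9, delta 22 and knockdown, and only the step from mut9 to delta 22 passed. FEZF1 and PPP1R1A ran from control through wild type, mut9 and knockdown to delta 22. For FEZF1 the last 2 steps passed, and for PPP1R1A each step but the last. For EGR2 the order was wild type, mut9, knockdown, delta 22 and control. Of its 4 neighbouring steps, only that from mut9 to knockdown passed the test.

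In the knockdown and rescue groups the members tended to deviate together, library by library. The control group did not show this: replicates 1, 2, 3 and 5 were the highest for 3, 1, 4 and 2 genes. They were the lowest for 4, 2, 2 and 2. Knockdown replicate 3 had the highest value of its group for 9 of the 10 genes, as for 19.1% of all genes tested, and EGR2 had its lowest there. Its FLI1 value, 9.99, was also the highest of the knockdown group. Wild-type replicate 4 was the highest of its group for 9 genes (16.3% of all genes), but the highest FLI1 value of that group was in replicate 1 (10.69, against 10.46), which was the highest for 1 gene. Knockdown replicate 4 had the lowest FLI1 value of its group (9.59) and was the lowest for 2 genes (16% of all genes). Replicate 1 of that group (9.67) was the lowest for 6 (27.7%). Wild-type replicate 3, with the lowest FLI1 value of its group (10.35), was the lowest for 7 (19.2%). Mut9 replicate 5 was the lowest of its group for 10 of 10 (40.3% of all genes), and its FLI1 value of 10.10 was the lowest there too. Delta 22 replicate 1 was the lowest for 6 (30.7%) while its FLI1 value, 11.51, was the highest of its group. These counts are descriptions, since members of one library share its preparation and normalization, and the part of the FLI1 level in them was not tested.

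**Figure D4:**
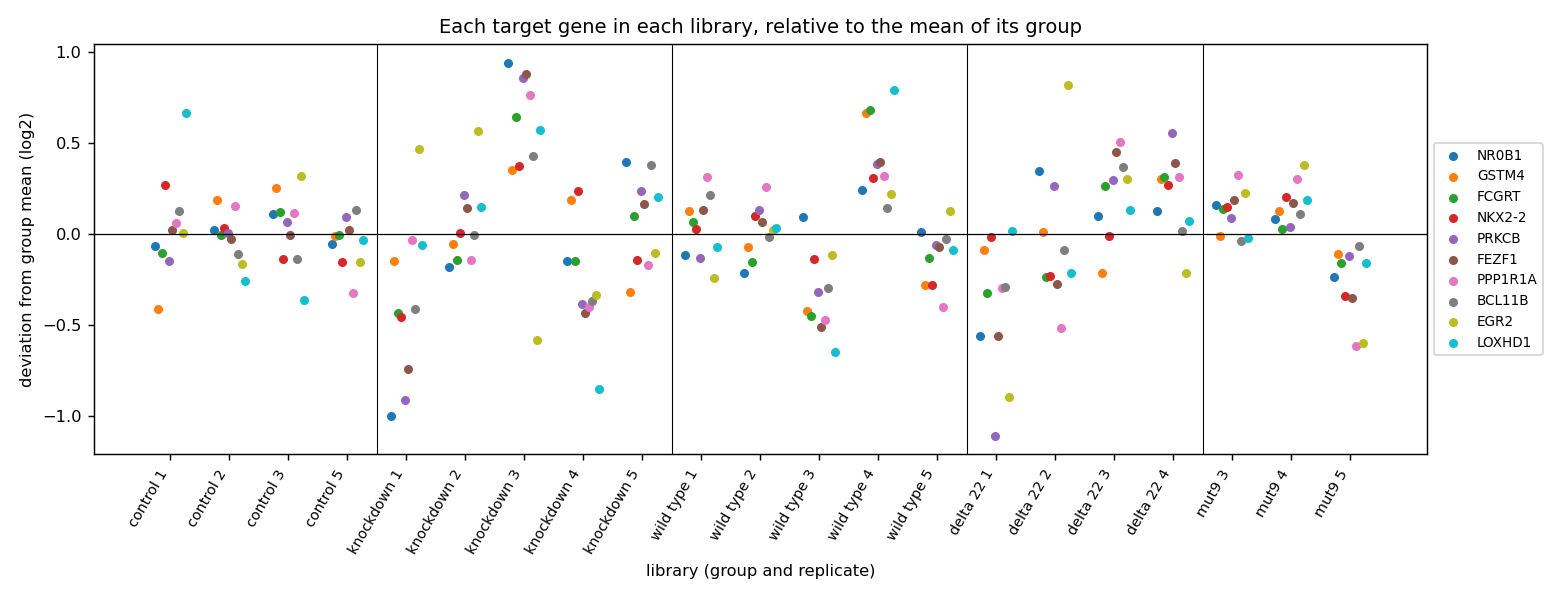
Deviation of each gene from the mean of its group (vertical axis, log2) in each of the 21 libraries; colours mark the genes and vertical lines separate the groups. In knockdown replicate 3 the 9 genes other than EGR2 lie above their group means and EGR2 lies below; in mut9 replicate 5 all 10 lie below.

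Other genes of the members' families were measured beside them. GSTM1, GSTM2 and GSTM3 fell with the knockdown (-1.33, -2.23 and -1.67) and rose with wild type by 1.10, 1.57 and 1.51, as GSTM4 did by larger amounts. In mut9 against wild type GSTM2 (0.83 ± 0.22, adjusted p = 0.0148) and GSTM3 (0.71 ± 0.16, adjusted p = 0.00469) were higher too, and GSTM1 was 0.36 ± 0.17 (adjusted p = 0.143). GSTM5 was below the filter. Of the 5187 stretches of 50 bases in GSTM4 transcripts, 12% also occur in another GSTM gene (8.68% in GSTM2, 4.82% in GSTM1, 0 in GSTM3). GSTM4 and GSTM2 also overlap in the genome on the same strand, in 375 exon bases (6.53% of those of GSTM4). Reads of these stretches could belong to either gene, and the GSTM4 values are to that extent uncertain.

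PPP1R1B, the related phosphatase inhibitor of dopamine signalling, also fell (-4.32 ± 0.18) and rose with wild type (3.59 ± 0.17), and in mut9 it was -0.36 ± 0.19 from wild type (adjusted p = 0.219). PRKCA, the alpha form of protein kinase C, moved opposite to PRKCB: it rose with the knockdown (1.06 ± 0.20) and fell with wild type (-1.38 ± 0.19). EGR1 and EGR3 rose with the knockdown (1.54 ± 0.40 and 2.01 ± 0.47), and with wild type EGR1 fell (-1.02 ± 0.38, adjusted p = 0.025) while EGR3 was -0.86 ± 0.44 (adjusted p = 0.0995). EGR4, like EGR2, was higher after knockdown (0.91 ± 0.35) and higher again with wild type (2.18 ± 0.33). BCL11A fell with the knockdown (-1.39 ± 0.22) and with wild type differed from the knockdown by -0.04 ± 0.21 (adjusted p = 0.888). NKX6-1 fell (-1.25 ± 0.19) and rose (0.73 ± 0.18), and NKX2-5 did so by smaller amounts (-0.30 ± 0.10 and 0.22 ± 0.09). NKX2-1, NKX2-3, FEZF2 and NR0B2 were below the filter.

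**Figure D5:**
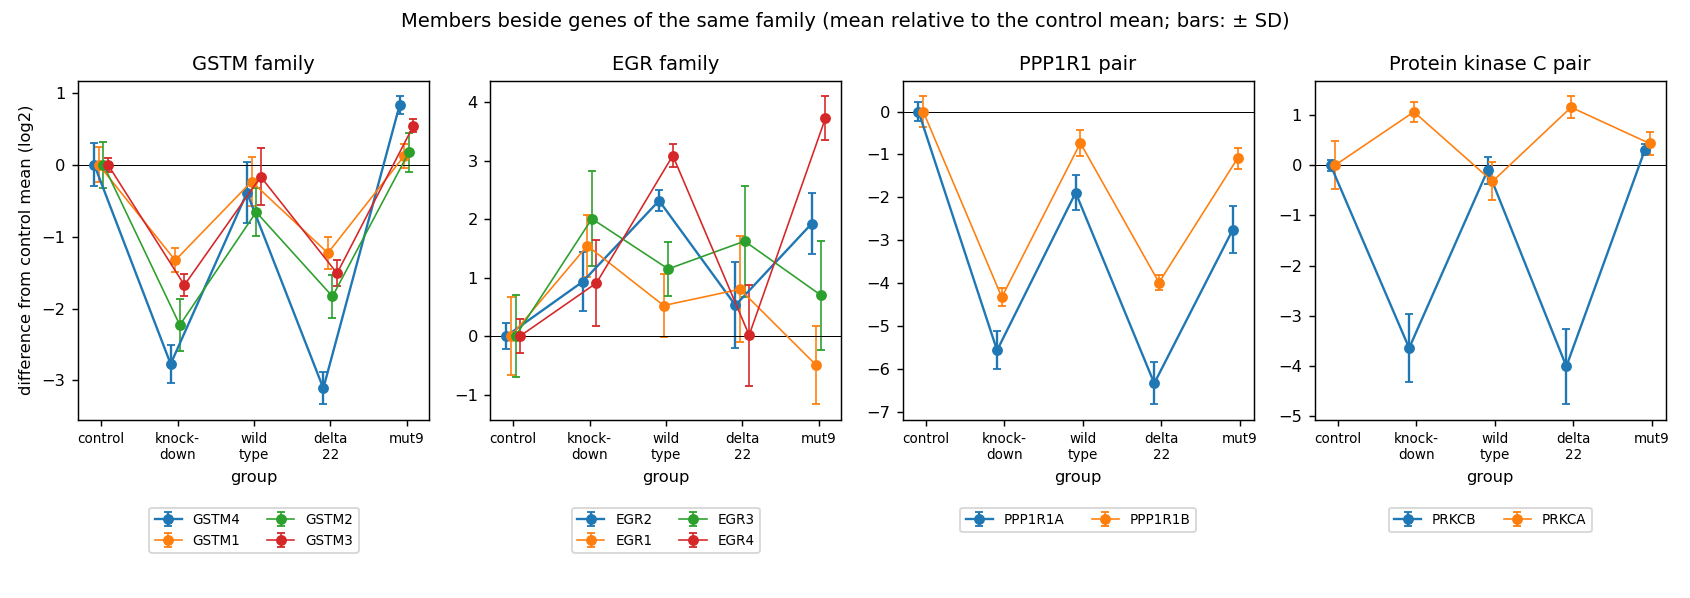
Group means relative to the control mean of each gene (vertical axes, log2) for GSTM4, EGR2, PPP1R1A and PRKCB beside genes of the same family; bars are ± SD over the libraries of a group. GSTM genes fall and return together, EGR2 and EGR4 are highest in the wild-type and mut9 groups, and PRKCA lies above its control mean in the knockdown where PRKCB lies far below its own (-3.64).

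Some members overlap genes on the other strand (GENCODE 29), and whether the authors' counting used strand is not stated in the sources used here. FEZF1-AS1 covers 23.4% of the exon bases of FEZF1 and changed like it (-4.12 ± 0.28 with the knockdown, 3.59 ± 0.26 with wild type). PDE1B, a calmodulin-dependent phosphodiesterase, covers 11.1% of PPP1R1A and was also lower after knockdown (-3.24 ± 0.19), higher with wild type (2.01 ± 0.18) and lower in mut9 than in wild type (-0.87 ± 0.21, adjusted p = 0.00747). NKX2-2-AS1 covers 30.5% of NKX2-2 and was listed at 0 in every library. For FEZF1 and PPP1R1A, reads from the shared bases cannot be told apart by these values.

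From a list of 32 other genes known as EWS/FLI-activated, 31 passed the filter. The list was written with earlier results of these data known, so its counts are no independent check of the members. With the knockdown 28 fell and 1 rose, with a median of -1.73, where 34% of all genes were called lower and 35.5% higher. With wild type 26 rose and 3 fell, with a median of 1.55, where 29.6% of all genes were called higher and 32.3% lower. The medians over all genes were -0.01 and 0.01. The differences with the knockdown were -4.64 ± 0.31 for the phospholipase LIPI, -4.09 ± 0.43 for the neuropeptide CCK, -4.06 ± 0.30 for the Wnt inhibitor DKK2 and -3.98 ± 0.30 for the telomerase gene TERT. HMGA1, a chromatin architectural factor, rose with the knockdown (1.46 ± 0.15) and fell with wild type (-2.13 ± 0.14). KIT and PBK were likewise lower with wild type than in the knockdown (-1.004 ± 0.26 and -0.32 ± 0.12). Unlike HMGA1, KIT was lower in knockdown (8.19 to 8.71) than in control libraries (9.12 to 9.97). PBK overlapped between knockdown (12.16 to 12.63) and control (12.40 to 12.61). With delta 22, 0 of the 31 passed in either direction, where 2.24% of all genes were called higher and 2.26% lower. In mut9 against wild type 1 was higher (SOX6, 0.44 ± 0.12) and 2 were lower (CCK, -3.25 ± 0.46, and KDSR, -0.38 ± 0.12), where 11.2% of all genes were called higher and 7.61% lower, so neither count stands above the background.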

How the data were processed

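RNA was sequenced from 21 libraries of A673 cells in 5 groups. Per the labels, RNA was purified with a column kit and DNase, and libraries were made with ScriptSeq. The submitters' processing notes list DESeq2, HTSeq, bcl2fastq, STAR 2.5.2b and, as build, hg19, with no role or order; annotation, strand setting and transform are not given in the sources used here. The authors deposited gene values that are normalized and log2-transformed, with the form of regularized logarithms, which draw low genes together; 17358 genes are 0 in every library, and depth is not kept. Because the values were already log2, the planned addition of a pseudocount was left out.

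Symbols were joined by Ensembl ID through GENCODE 29 (51996 matched, 5824 not). Tests covered the 18040 genes whose linear value was 10 or more in 3 or more libraries. Group means were compared with limma 3.58.1 (R 4.3.3) with an intensity trend, all 21 libraries sharing 1 estimate of spread, with Benjamini-Hochberg adjustment; the procedure was tested on simulated data. The 10 genes, the other lists and the rule for named genes were chosen with earlier results of these data known; overlapping genes, SOX6, KDSR, KIT and PBK were chosen after their values were seen. Named by rule were the members, FLI1, the 4 other activated genes with the largest called differences after knockdown, genes of that list called against its majority, and the genes most alike in profile. Replicate numbers are the labelled batches and so pair the libraries: the mean correlation of within-group deviations was 0.20 over 34 same-batch pairs and -0.05 over 141 others. Alternatives were a replicate block, each library left out, array weights, only the groups compared, only batches 3 to 5, scaling by trimmed means or by quantiles, no filter, and a filter at a mean of 100. The closest pair of libraries correlated at 0.9978 and shared 0 identical gene values.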

Additional observations from a re-analysis of the deposited data

How the results depend on the processing

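The counts of 9 members lower after knockdown, 10 higher with wild type, 0 higher with delta 22 and 10 lower with delta 22 than with wild type were the same in all alternatives run, and no value reversed its call. With a replicate block, which uses the pairing by batch, 1292 genes were called for delta 22 minus knockdown (811 without) and 2 members were lower with wild type than in control (1 without); the member calls it changed are given in the results, and it changed no other. With the compared groups only, delta 22 minus knockdown had 262 genes called and 0 members lower (2 in the full fit), mut9 minus wild type had 0 members lower (1 in the full fit), wild type minus control had 2 lower and mut9 minus control had 5 higher (3 in the full fit). In batches 3 to 5 only, the knockdown had 0 members higher, delta 22 minus knockdown had 15 genes called and 0 members lower, mut9 minus wild type had 1745 genes called (3390 in the full fit) with 1 member higher and 0 lower, mut9 minus control had 1 member higher, and wild type minus control had 4588 genes called (7135 in the full fit). With array weights, mut9 minus wild type had 5234 genes called, wild type minus control had 2 members lower, delta 22 minus control had 1 higher and mut9 minus control had 5 higher. Without a filter, mut9 minus wild type had 0 members lower. The cause was not tested; fits with fewer libraries also have fewer samples. With single libraries left out, delta 22 minus knockdown ranged from 383 to 900 genes called and from 0 to 3 members lower, mut9 minus wild type from 1723 to 3572 genes, 1 to 3 members higher and 0 to 1 lower, wild type minus control from 1 to 2 members lower, delta 22 minus control from 0 to 1 higher and mut9 minus control from 1 to 2 lower. The lowest of these counts came without delta 22 replicate 1 (383) and without mut9 replicate 3 (1723). Quantile scaling moved the median of all genes by -0.20 for knockdown minus control, 0.12 for wild type minus knockdown, -0.18 for delta 22 minus control and -0.12 for mut9 minus control, and under it the knockdown differences were -2.29 for NR0B1, -5.76 for PPP1R1A and 0.77 for EGR2. Depth is unknown, so its limits on low genes cannot be stated.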

Other observations

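Among genes with a mean of at least 100 on the linear scale, the profiles most like the mean profile of the 10 members over the 21 libraries were those of HS3ST4, a heparan sulfate sulfotransferase (Pearson r = 0.9957), CYP4F22, a fatty acid hydroxylase of skin (0.9932), TRAV3, a T cell receptor variable segment (0.9918), STEAP2, a metalloreductase (0.9916), and AMN1 (0.9913). Mean log2 values ± SD of HS3ST4 in the control, knockdown, wild-type, delta 22 and mut9 groups were 9.41 ± 0.08, 5.26 ± 0.52, 8.98 ± 0.39, 4.84 ± 0.45 and 9.25 ± 0.28. TRAV3 was 7.32 ± 0.15, 4.11 ± 0.53, 7.499 ± 0.39, 3.55 ± 0.36 and 7.38 ± 0.44 in the same order. The libraries fall into groups, and these correlations include the differences between the groups.

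For single members the most alike genes were SPATA13 for NR0B1 (0.9821), the long noncoding RNA EWSAT1 for GSTM4 (0.9863), SLC35F3 for FCGRT (0.9928), the adrenergic receptor gene ADRB1 for NKX2-2 (0.9899) and LINC02732 for PRKCB (0.9933). They were FEZF1-AS1 for FEZF1 (0.9969), NRDC for PPP1R1A (0.9896), MIR600HG for BCL11B (0.9886) and SH3GL3 for LOXHD1 (0.9884). EGR2 had no such close match, the nearest being CPEB2 (0.9006). In the same order EWSAT1 was 8.34 ± 0.23, 4.604 ± 0.37, 7.75 ± 0.50, 4.51 ± 0.39 and 8.86 ± 0.17, with the mut9 mean above the control mean, as for GSTM4. EWSAT1 was chosen for its likeness to GSTM4, so this shared order is no separate result.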
